A study of Mus musculus with 12 samples.

Results

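The IL-10, IL-6 and STAT3 axis was followed through 7 genes in mouse macrophages: the cytokines Il10, Il6 and Osm, the receptor chains Il10ra and Il6ra, the transcription factor Stat3 and its feedback inhibitor Socs3. These genes were listed by name and matched to the count table by Ensembl identifier. All 7 were among the 54232 genes of the table and among the 16281 genes tested. IL-10 binds IL-10 receptor alpha (Il10ra) and beta (Il10rb), IL-6 binds its own receptor (Il6ra) together with gp130 (Il6st), and oncostatin M (Osm) binds gp130 with the oncostatin M receptor (Osmr) or the LIF receptor (Lifr). Each receptor activates JAK kinases, which phosphorylate STAT3. In macrophages, STAT3 downstream of IL-10 is known for restraining inflammatory genes, and its target SOCS3 binds gp130 and shortens IL-6 signaling while leaving IL-10 signaling largely untouched.

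The cells were bone marrow derived macrophages (BMDMs) of wild-type C57BL/6 mice, which were 6 to 8 weeks old by the methods of the study. After 5 days of culture they were kept for 24 h in tumor-conditioned medium (TCM) or without it, each with and without R788 at 500 nM. R788, also called fostamatinib, is a prodrug of R406, an inhibitor of the kinase Syk. TCM was taken from the murine neuroblastoma cell lines NB9464 (MYCN amplified) and NBT3L (not amplified). Each of the 6 groups had 2 libraries. Cells without TCM formed the groups NS, which had no R788, and R788. Cells with TCM formed the groups NB9464 TCM and NBT3L TCM, and, given R788 as well, NB9464 TCM + R788 and NBT3L TCM + R788. By the methods, NB9464 TCM was serum-free DMEM collected after 48 h on the tumor cells, whereas BMDMs were grown in RPMI with serum and MCSF. How NBT3L TCM was prepared, what medium NS and R788 cells received and what R788 was dissolved in were not given in the sources used here, so a comparison of TCM with NS cannot be told apart from a change of base medium and serum. Nothing in the labels says whether the 2 libraries of a group came from separate mice or cultures, and p-values therefore measure the spread between these libraries, which may be technical.

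Total counts were between 44977847 and 56449685 per library. Library SJ8 of the R788 group had 16149 genes with a count, against 17275 to 18343 in the other libraries, and the replicates of that group differed most (SD of the log2 difference 0.371, against at most 0.261 in the other groups). Values of members and of named axis genes with R788 alone are therefore also given without SJ8. The 8 macrophage markers summed to between 72383 and 86874 TPM, a length-scaled level that adds up to the same total in every library. Lyz2 alone lay between 63439 and 77172 TPM, so this sum mostly reports Lyz2. Markers of T cells, B cells, dendritic cells, neuroblasts and mast cells summed to at most 2.78 TPM in any library. The 7 neutrophil markers summed to between 399.8 and 787 TPM, with at least 70.1% of that level from S100a8 and S100a9 in every library, and the defining marker Ly6g did not exceed 0.253 TPM. In bulk samples, fewer cells of a type and less RNA per cell cannot be told apart.

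Il6 and Socs3 rose together in both media and Il6ra fell, so the bases upstream of their RefSeq transcription starts (GRCm38.p6) are shown, read 5′ to 3′ on the strand of the gene. Capitals mark matches to letters typical of 4 factor families, searched on both strands and not overlapping one another: TTCNNNGAA for STAT, the half-sites GGGNN and TTNCC side by side for NF-kB, TTNNGNAA for C/EBP and TGANTCA for AP-1. The stretch of Socs3 covers bases 250 to 86 before the start, because the rest lies in an exon of the annotation. By that annotation Socs3 spans 117966079 to 117970047, so its stretch lies within the annotated gene and not before it.
Il6, chr5:30012864-30013113, plus strand: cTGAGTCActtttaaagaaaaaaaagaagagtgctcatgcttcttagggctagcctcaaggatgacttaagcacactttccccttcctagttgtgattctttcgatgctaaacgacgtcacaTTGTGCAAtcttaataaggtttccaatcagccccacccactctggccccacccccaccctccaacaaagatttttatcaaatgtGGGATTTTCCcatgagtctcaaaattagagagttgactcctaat
Socs3, chr11:117969452-117969616, minus strand: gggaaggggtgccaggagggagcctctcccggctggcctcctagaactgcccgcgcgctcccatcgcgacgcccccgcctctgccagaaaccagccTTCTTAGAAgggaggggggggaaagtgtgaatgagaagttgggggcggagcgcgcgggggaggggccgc
Il6ra, chr3:89913197-89913446, minus strand: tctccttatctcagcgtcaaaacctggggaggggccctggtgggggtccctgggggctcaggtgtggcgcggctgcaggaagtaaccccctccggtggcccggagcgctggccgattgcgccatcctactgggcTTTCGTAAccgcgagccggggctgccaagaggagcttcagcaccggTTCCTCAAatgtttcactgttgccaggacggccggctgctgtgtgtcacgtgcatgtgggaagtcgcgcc
The stretch of Il6 held 1 NF-kB match (GGGATTTTCC, 44 to 35 bases before the start), 1 C/EBP match (TTGTGCAA, 128 to 121) and 1 AP-1 match (TGAGTCA, 249 to 243). That of Socs3 held 1 STAT match (TTCTTAGAA, 154 to 146), and that of Il6ra held 2 C/EBP matches (TTTCGTAA and TTCCTCAA). Of the 250 bases before the start of 32851 promoters, 7.02% held the STAT letters, 4.11% the NF-kB letters, 36.8% the C/EBP letters and 6.75% the AP-1 letters. A match describes letters and not binding, which was not measured.

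Per exon length, the genes spanned a wide range of levels. Socs3 lay between 5.28 and 354 TPM, Il10ra between 53.3 and 126 TPM, Stat3 between 42.3 and 53.0 TPM, and Il6ra between 13.4 and 44.2 TPM. Among the cytokines, Il10 lay between 3.95 and 37.4 TPM, Osm between 4.73 and 17.7 TPM, and Il6 between 0 and 14.2 TPM. The 2 receptor chains and Stat3 were thus present in every library, while Il6 was near or at 0 without TCM. All following levels are normalized counts, which are counts divided by a size factor per library and do not compare one gene with another.

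**Figure D1:**
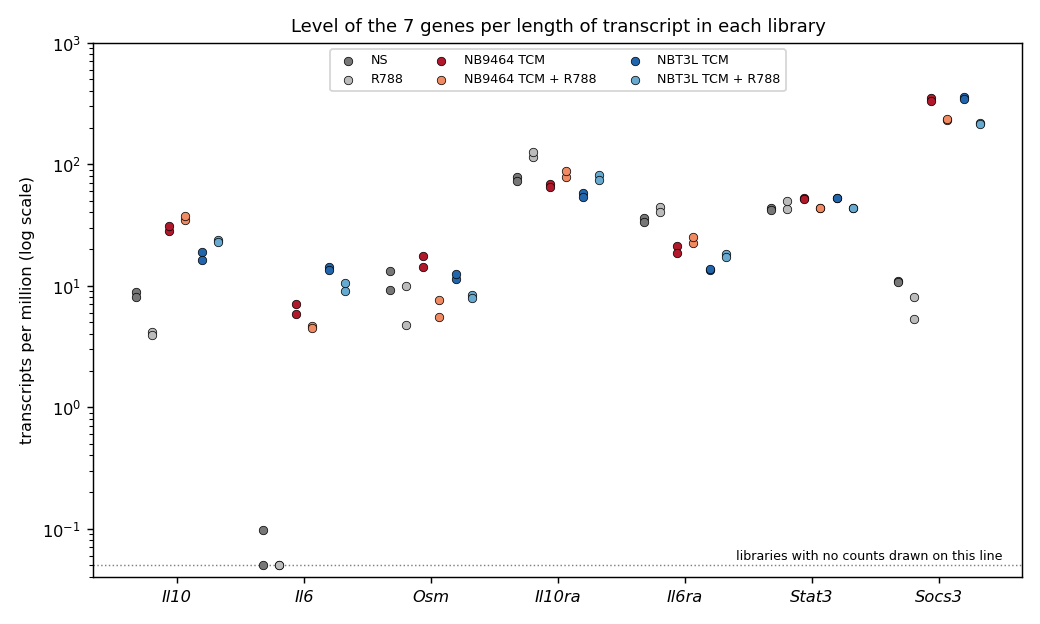
TPM of the 7 genes on a log axis, 1 point per library and 1 color per group, with libraries at 0 drawn on the dotted line. Socs3 covers the widest range among genes with counts in every library (5.28 to 354 TPM), Stat3 the narrowest (42.3 to 53.0 TPM).

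The first question was how the 2 conditioned media changed the axis. In NB9464 TCM, 5 of the 7 genes were higher than in NS and 1 was lower at an adjusted p under 0.05 (17.2% and 16.9% of all genes tested were called higher and lower, 34.1% in all). In NBT3L TCM, 4 were higher and 1 lower (18.0% and 17.3% of all genes, 35.3% in all). These comparisons share the NS libraries. Il10, Il6, Stat3 and Socs3 rose and Il6ra fell in both media, while Osm was called in NB9464 TCM and Il10ra in neither.

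Il6 (chromosome 5, 30013114 to 30019981), a cytokine that drives acute phase and inflammatory responses, was nearly absent without TCM. NS libraries had 0 and 4 counts, or 0 and 3.79 normalized counts. In NB9464 TCM, Il6 stood at 259 and 327 normalized counts, and in NBT3L TCM at 710 and 671. The libraries with and without TCM were far apart. The log2 fold change was 7.28 ± 0.76 (SE) in NB9464 TCM (adjusted p = 2.34e-20) and 8.51 ± 0.76 in NBT3L TCM (adjusted p = 1.08e-27). Both rest on the 4 NS counts: summed over libraries, the ratio to NS was 156 (95% exact interval 60.5 to 573, counting error only) in NB9464 TCM and 365 (142 to 1343) in NBT3L TCM. These intervals take counts as independent events and would be wider if both reads of a pair had been counted. Without library SJ2, NS had no counts of Il6.

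Socs3 (chromosome 11, 117966079 to 117970047) encodes the inhibitor that STAT3 induces. Its NS libraries held 487 and 491 normalized counts. NB9464 TCM gave 18569 and 18442, and NBT3L TCM gave 21084 and 20567. The groups were far apart and replicates lay close together. The rise was 37.8-fold in NB9464 TCM (log2 5.24 ± 0.18, adjusted p = 1.16e-180) and 42.6-fold in NBT3L TCM (5.41 ± 0.18, adjusted p = 1.21e-192). No other member with counts in every NS library changed as much.

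Il10 (chromosome 1, 131019845 to 131024974), the anti-inflammatory cytokine of the axis, rose as well. It had 179 and 169 normalized counts in NS. In NB9464 TCM it had 672 and 786, and in NBT3L TCM 510 and 441. The rise was 4.19-fold in NB9464 TCM (log2 2.07 ± 0.19, adjusted p = 1.01e-26) and 2.73-fold in NBT3L TCM (1.45 ± 0.19, adjusted p = 4.02e-13). All TCM libraries lay above the NS libraries.

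Osm (chromosome 11, 4236420 to 4241026), a cytokine of the IL-6 family, moved less. Its NS libraries differed from each other, with 321 and 479 normalized counts. It had 734 and 627 in NB9464 TCM, and 528 and 582 in NBT3L TCM. The libraries of both media lay above those of NS, but the difference was near the spread of the NS pair. The log2 fold change was 0.77 ± 0.30 in NB9464 TCM (adjusted p = 0.0336, edgeR adjusted p = 0.0487) and 0.47 ± 0.30 in NBT3L TCM (adjusted p = 0.236). The call in NB9464 TCM was lost without library SJ1 (log2 0.50, adjusted p = 0.323), SJ3 (adjusted p = 0.204) or SJ4 (adjusted p = 0.0661), and when libraries were scaled to equal totals (adjusted p = 0.0828).

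Stat3 (chromosome 11, 100885098 to 100939540) had 6453 and 6428 normalized counts in NS. NB9464 TCM gave 9193 and 9431, and NBT3L TCM gave 10290 and 10416. The rise was 1.45-fold (log2 0.53 ± 0.068, adjusted p = 6.25e-14) and 1.61-fold (0.68 ± 0.068, adjusted p = 1.45e-22). The groups were separate and the spread within each pair was small. Exons of Stat3 overlap those of Stat5a on the opposite strand, so reads of the 2 genes cannot be told apart if counting ignored strand.

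The receptor chains did not follow the cytokines. Il6ra (chromosome 3, 89864059 to 89913196), the chain that binds IL-6 itself, had 4840 and 4632 normalized counts in NS, 3335 and 3053 in NB9464 TCM, and 2379 and 2464 in NBT3L TCM. It fell by 0.57 ± 0.086 on the log2 scale in NB9464 TCM (adjusted p = 3.51e-10) and by 0.97 ± 0.087 in NBT3L TCM (adjusted p = 2.14e-27). Its exons overlap those of Gm42809 on the opposite strand. Il10ra (chromosome 9, 45253837 to 45269149), the chain that binds IL-10, had 4216 and 4087 in NS, 4415 and 4377 in NB9464 TCM, and 4211 and 3847 in NBT3L TCM. Its log2 fold change was 0.083 (95% interval -0.071 to 0.24, adjusted p = 0.48) and -0.044 (-0.20 to 0.11, adjusted p = 0.744). Scaling to equal totals moved the median of all genes to -0.10 in NB9464 TCM and -0.23 in NBT3L TCM. On that scale Il10ra was at -0.046 (adjusted p = 0.735) and -0.28 (adjusted p = 0.00235), so the value in NB9464 TCM changed sign and that in NBT3L TCM was called lower. The other members kept their direction in both media on that scale.

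**Figure D2:**
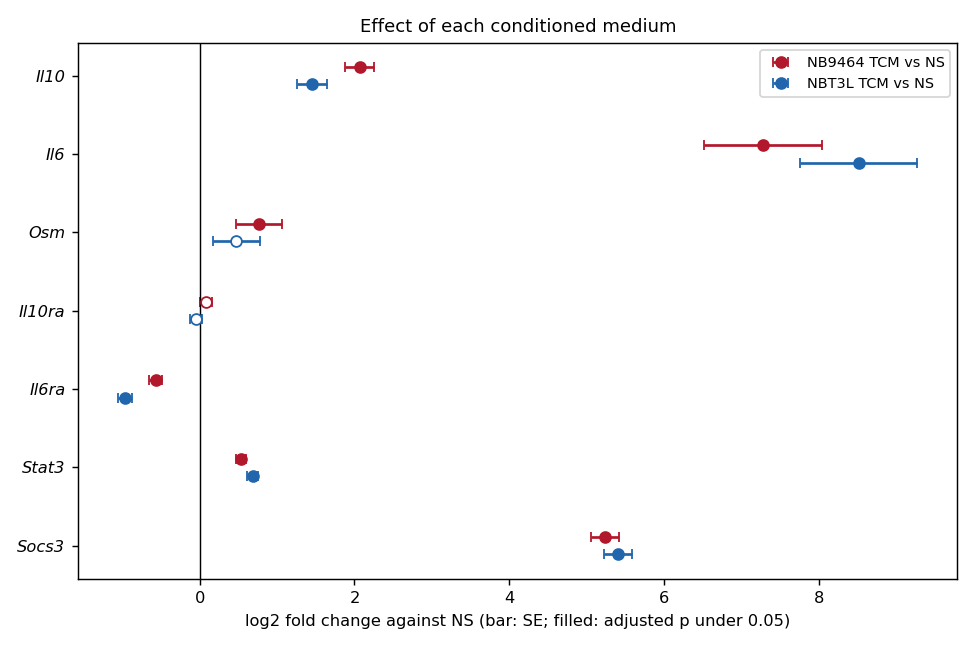
Log2 fold change of each gene in NB9464 TCM (red) and NBT3L TCM (blue) against NS, with bars of 1 SE and filled points for an adjusted p under 0.05. Il6 and Socs3 lie above 5 in both media, Il6ra below 0 in both, and Il10ra beside 0.

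Partner chains of the members fell with TCM. Il6st, which encodes gp130, the signaling chain shared by IL-6 and oncostatin M, had a mean of 3046 normalized counts in NS, against 1465 with NB9464 TCM and 1446 with NBT3L TCM (log2 fold changes -1.06 ± 0.10 and -1.08 ± 0.10, adjusted p = 6.56e-25 and 2.07e-25). Il10rb, the second chain of the IL-10 receptor, fell by 0.79 ± 0.073 and 0.53 ± 0.073 on the log2 scale (adjusted p = 4.04e-26 and 2.79e-12). Lifr fell by 0.98 ± 0.35 and 2.04 ± 0.36 (adjusted p = 0.0191 and 1.53e-07), and Osmr had a mean of at most 22.7 normalized counts in any group and was not called. Of 10 further receptor genes, 7 were tested, and 3 were lower and 0 higher in NB9464 TCM, against 3 lower and 1 higher in NBT3L TCM. Across all genes, 16.9% were called lower and 17.2% higher in NB9464 TCM, and 17.3% and 18.0% in NBT3L TCM. Of the 8 macrophage markers none was at 0. Their sum, most of it from Lyz2, was 74364 and 75772 TPM in NB9464 TCM, above both NS libraries (72383 and 72621). The NBT3L TCM libraries (72570 and 77974) lay on either side of the upper NS library. The part of this difference in the receptor results was not tested.

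Among the kinases only rises were called, while inhibitors moved in both directions. Jak2, with a mean of 2165 normalized counts in NS, reached 5656 in NB9464 TCM (log2 fold change 1.39 ± 0.099, adjusted p = 2.58e-43) and 7918 in NBT3L TCM (1.87 ± 0.098, adjusted p = 1.08e-78). Jak1 was called in NBT3L TCM alone (0.23 ± 0.059, adjusted p = 0.000476), and Tyk2 in neither. Socs1, an inhibitor of JAK kinases, rose by 2.17 ± 0.17 and 3.41 ± 0.17 (adjusted p = 2.5e-36 and 6.62e-90). Pias3, which encodes an inhibitor of STAT3 binding to DNA, fell by 0.74 ± 0.12 and 0.69 ± 0.12 (adjusted p = 1.88e-08 and 1.97e-07). Of the 8 further inhibitors, 3 were higher and 2 lower in NB9464 TCM, and 4 were higher and 2 lower in NBT3L TCM. Shares of all genes called higher and lower were 17.2% and 16.9% in NB9464 TCM, and 18.0% and 17.3% in NBT3L TCM.

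Known STAT3 targets were mostly higher, on a list chosen with earlier results of these data known. Of 14 targets other than Socs3, all tested, 12 were higher and 2 lower in NB9464 TCM (median log2 fold change 0.96, against 0.021 over all genes). In NBT3L TCM 11 were higher and 2 lower (0.97, against 0). Beside these and the ligand counts below, 17.2% of the whole test set passed as higher and 16.9% as lower with NB9464 TCM. With NBT3L TCM the portions were 18.0% and 17.3%. Cebpd, a transcription factor of the acute phase response, rose by 1.72 ± 0.068 in NB9464 TCM (adjusted p = 8.82e-138) and by 1.63 ± 0.068 in NBT3L TCM (adjusted p = 1.13e-123). Hmox1, which encodes heme oxygenase 1, rose by 1.66 ± 0.041 and 2.29 ± 0.041 (edgeR adjusted p = 5.95e-15 and 1.61e-16). Il1rn, the IL-1 receptor antagonist, rose by 1.01 ± 0.11 in NB9464 TCM (adjusted p = 7.12e-18) and by 3.02 ± 0.11 in NBT3L TCM (adjusted p = 4.81e-156). Many of these targets also answer to other factors. Among other ligands, Clcf1 rose by 1.89 ± 0.43 and 2.18 ± 0.43 (adjusted p = 6.14e-05 and 2.36e-06) and Ebi3, a subunit of IL-27 and IL-35, by 1.13 ± 0.099 and 1.31 ± 0.099 (adjusted p = 4e-29 and 7.73e-39). Of 11 such ligands 7 were tested, including Il11 and Ctf1, named here because neither received an adjusted p. In each medium 4 ligands were higher and 0 lower. These calls include Lif and Il19, named here for their low means of 26.9 and 7.17 normalized counts over the 12 libraries. Il19 had no counts in NS and was not called by edgeR (adjusted p = 0.0667 and 0.0719).

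Genes that control Il6, Il10 or the release of the IL-6 receptor were listed as well. Nfkbiz, a cofactor of NF-kB needed for Il6 transcription, rose by 3.03 ± 0.067 in NB9464 TCM and 2.83 ± 0.068 in NBT3L TCM, and Zc3h12a, an RNase that degrades Il6 mRNA, by 1.76 ± 0.061 and 1.86 ± 0.061. Of 8 Il6 regulators, 3 were higher and 2 lower in NB9464 TCM, and 5 higher and 1 lower in NBT3L TCM. Of 6 Il10 regulators, 3 were higher and 2 lower in NB9464 TCM, and 2 higher and 1 lower in NBT3L TCM. The shares of all genes called higher and lower were 17.2% and 16.9% in NB9464 TCM, and 18.0% and 17.3% in NBT3L TCM. Map3k8, the kinase TPL2, rose by 0.97 ± 0.15 and 0.85 ± 0.15 (adjusted p = 2.88e-09 and 2.8e-07), Dusp1, a phosphatase of MAP kinases, by 0.84 ± 0.086 in NB9464 TCM (adjusted p = 3.62e-21), and Prdm1 by 1.62 ± 0.23 in NBT3L TCM (adjusted p = 1.23e-11). Of the sheddase genes, Adam10 fell by 0.83 ± 0.056 and 0.84 ± 0.056, and Rhbdf2, which encodes an adaptor of ADAM17, rose by 0.73 ± 0.066 and 0.89 ± 0.066. These 8 changes in Nfkbiz, Zc3h12a, Adam10 and Rhbdf2 were also called by edgeR, with adjusted p of at most 2.3e-07.

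**Figure D3:**
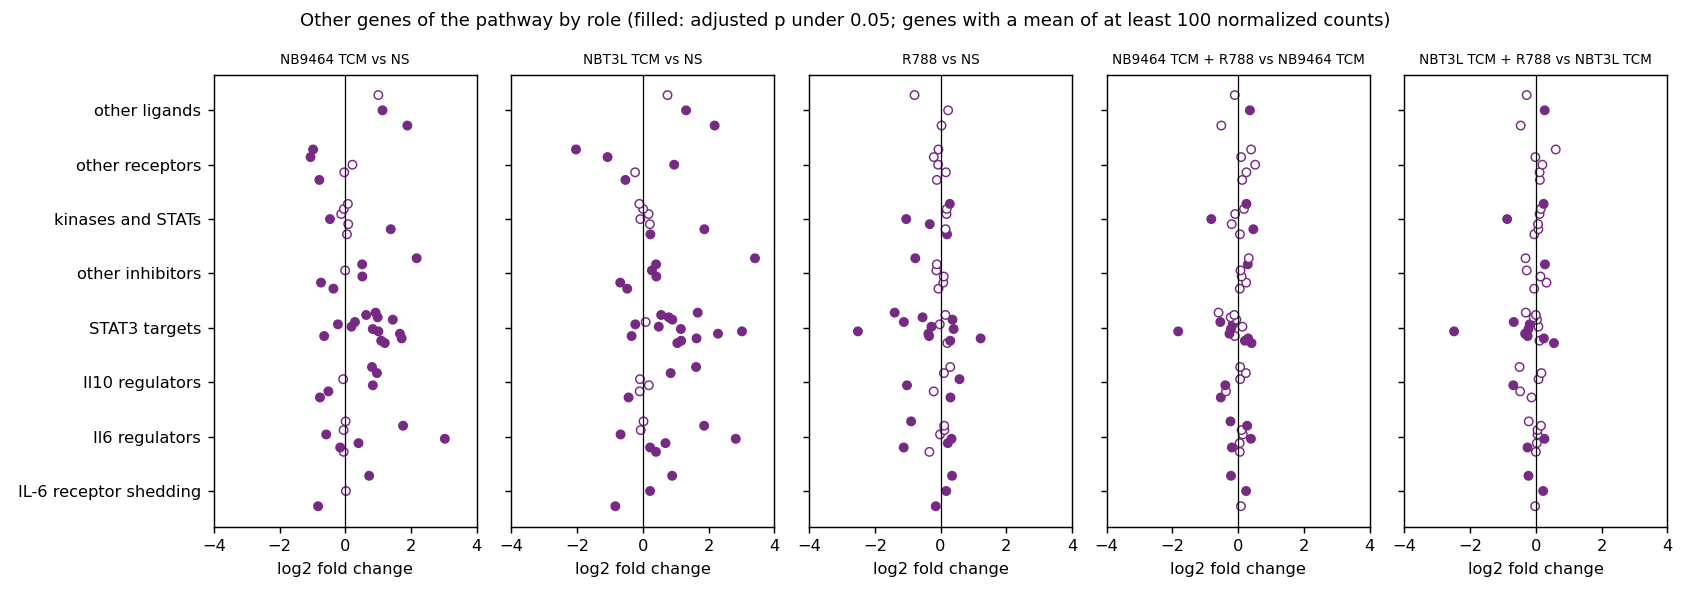
Log2 fold changes of the 52 listed genes with a mean of at least 100 normalized counts, by role, in the comparisons of each medium with NS and of R788 with no R788. Filled points passed an adjusted p under 0.05. STAT3 targets lie mostly right of 0 with TCM, and the lowest point with R788 in each medium is Il1rn.

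The 2 media were then compared directly. NB9464 TCM gave higher Il10 and Il6ra and lower Il6 than NBT3L TCM, and the other 4 members were not called (3.69% of all genes were called higher and 5.72% lower, 9.40% in all). Il10 was higher by 0.62 ± 0.18 on the log2 scale (adjusted p = 0.00753) and Il6ra by 0.40 ± 0.088 (adjusted p = 0.000119), while Il6 fell by 1.24 ± 0.25 (adjusted p = 2.54e-05). The medium with more Il10 thus had less Il6. The call of Il10 was lost without library SJ4 (adjusted p = 0.207) or SJ6 (adjusted p = 0.231). Socs3 differed by -0.17 (95% interval -0.52 to 0.18, adjusted p = 0.644), Stat3 by -0.15 (-0.29 to -0.020, adjusted p = 0.13), Osm by 0.29 (-0.30 to 0.88, adjusted p = 0.642) and Il10ra by 0.13 (-0.028 to 0.28, adjusted p = 0.351). Libraries of the 2 media did not overlap for Socs3 or Stat3 in normalized counts, but they did in TPM. In a fit of the libraries compared alone, Socs3 was called (-0.16, adjusted p = 0.0177). Without SJ7 or SJ8, the R788 libraries that enter only the estimate of spread, the values were -0.17 for Socs3 and -0.15 for Stat3. When libraries were scaled to equal totals, Socs3 was at -0.067 (adjusted p = 0.87) and Stat3 at -0.050 (adjusted p = 0.727). On that scale Il10ra was called higher in NB9464 TCM (0.23, adjusted p = 0.0379). Among other genes of the axis, Il1rn (-2.01 ± 0.11, adjusted p = 2.76e-69) and Socs1 (-1.24 ± 0.16, adjusted p = 5.18e-13) were lower in NB9464 TCM. So were Hmox1 (-0.62 ± 0.041, adjusted p = 1.21e-48), Jak2 (-0.49 ± 0.097, adjusted p = 1.57e-05) and Il10rb (-0.26 ± 0.073, adjusted p = 0.00597, edgeR adjusted p = 0.0509). Dusp1 was higher (0.66 ± 0.086, adjusted p = 2.17e-12). Of the 60 other genes tested, 4 were higher and 16 lower in NB9464 TCM. That count of 20 was 13 by edgeR, and 12, 11 and 10 without SJ3, SJ5 and SJ6.

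**Figure D4:**
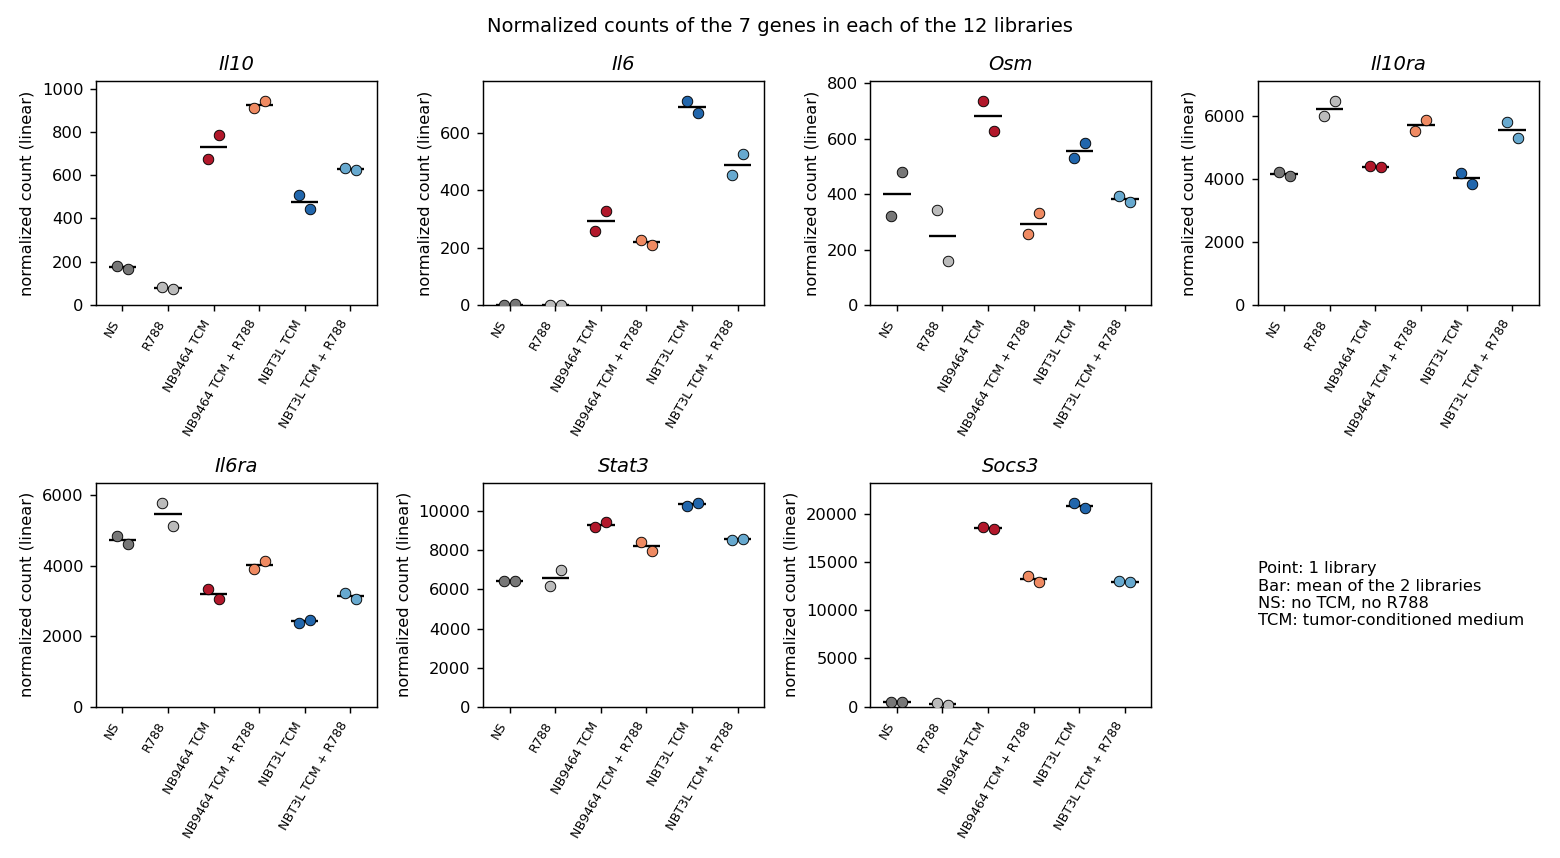
Normalized counts on linear axes for each library (points) and group mean (bars) of the 7 genes. Il10 is lowest in R788 (81.8 and 75.8) and highest in NB9464 TCM + R788 (912 and 941), while Socs3 with TCM is lower in the libraries with R788.

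The second question was what Syk inhibition changed in each medium. Without TCM, 1 of the 7 members was higher with R788 and 2 were lower (11.6% and 15.0% of all genes were called higher and lower, 26.6% in all). In NB9464 TCM 2 were higher and 3 lower (5.79% and 8.70% of all genes, 14.5% in all), and in NBT3L TCM 2 were higher and 2 lower (5.33% and 7.24% of all genes, 12.6% in all). Il10ra rose in all 3 media, Socs3 fell in all 3, and Il10 fell without TCM. The count without TCM was 5 without SJ1, and the count in NB9464 TCM was 2 or 3 on leaving out any single library other than SJ7 or SJ8.

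The response of Il10 to R788 depended on the medium. Without TCM its libraries held 81.8 and 75.8 normalized counts with R788, against 179 and 169 in NS. With NB9464 TCM it stood at 912 and 941 with R788, against 672 and 786 without, and with NBT3L TCM at 634 and 623, against 510 and 441. Libraries with R788 lay below their controls without TCM and above them in both media. Il10 fell by 1.14 ± 0.21 on the log2 scale without TCM (adjusted p = 9.16e-07), also without SJ8 (-1.09, adjusted p = 0.00023). In TCM the differences were 0.35 (95% interval 0.00029 to 0.69, adjusted p = 0.178) in NB9464 TCM and 0.40 (0.049 to 0.76, adjusted p = 0.122) in NBT3L TCM, which did not pass the threshold. The effect of R788 differed from that without TCM by 1.49 ± 0.28 in NB9464 TCM (adjusted p = 2.36e-06) and by 1.55 ± 0.28 in NBT3L TCM (adjusted p = 1.3e-06). Across all genes, 12.5% and 10.1% were called for these differences, which share the R788 and NS libraries. Without SJ8 they were 1.44 (adjusted p = 9.24e-05) and 1.49 (adjusted p = 6.44e-05).

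Set against cells without TCM, Il10 with NB9464 TCM stood 4.19-fold above NS, and with NB9464 TCM + R788 11.8-fold above R788 alone. With NBT3L TCM the ratios of group means were 2.73 and 7.97. Regulators of Il10 did not all move with it. Maf, a transcription factor that activates Il10, had means of 20596 normalized counts in NS and 30733 in R788 (log2 fold change 0.58 ± 0.069, adjusted p = 2.15e-15, and 0.49 without SJ8), while Il10 fell. Dusp1 fell by 1.02 ± 0.089 without TCM (adjusted p = 8.52e-29, and -1.02 without SJ8), by 0.39 ± 0.086 in NB9464 TCM (adjusted p = 9.06e-05) and by 0.68 ± 0.088 in NBT3L TCM (adjusted p = 5.55e-13). Bhlhe40, a repressor of Il10, rose by 0.30 ± 0.11 without TCM (adjusted p = 0.0279) and fell by 0.53 ± 0.12 in NB9464 TCM (adjusted p = 0.000136), and these effects differed by -0.83 ± 0.16 (adjusted p = 1.09e-05). The rise of Bhlhe40 was not called without SJ8 (0.20, adjusted p = 0.256). Of the 6 regulators, 2 were higher and 1 lower without TCM. In NB9464 TCM 0 were higher and 2 lower, and in NBT3L TCM 0 were higher and 1 lower. Among all genes, 11.6% were called higher and 15.0% lower without TCM. These shares were 5.79% and 8.70% in NB9464 TCM, and 5.33% and 7.24% in NBT3L TCM.

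Il6 had no counts in either R788 library, where 3 counts would have been 2.73 and 2.40 normalized counts, and 0 and 4 counts in NS, so no fold change without TCM is given. In NB9464 TCM it had 227 and 210 normalized counts with R788 against 259 and 327 without, and in NBT3L TCM 454 and 526 against 710 and 671. All libraries with R788 lay below those without in the same medium. The log2 differences were -0.42 (95% interval -0.93 to 0.082, adjusted p = 0.285) and -0.50 (-0.99 to -0.0060, adjusted p = 0.187), which did not pass the threshold. In a fit of the libraries compared alone, the difference in NBT3L TCM had an adjusted p of 0.0324. Nfkbiz was higher with R788 in NB9464 TCM (0.39 ± 0.062, adjusted p = 1.16e-08), as was Zc3h12a (0.27 ± 0.059, adjusted p = 7.38e-05).

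Regulators of Il6 moved in both directions with R788. Of the 8, 2 were higher and 2 lower without TCM, 2 higher and 2 lower in NB9464 TCM, and 1 higher and 1 lower in NBT3L TCM. Shares of all genes called higher and lower were 11.6% and 15.0%, 5.79% and 8.70%, and 5.33% and 7.24% in that order. Nfkbiz was also higher without TCM (0.33 ± 0.071, adjusted p = 2.06e-05, and 0.33 without SJ8) and in NBT3L TCM (0.26 ± 0.062, adjusted p = 0.000401). Atf3, a transcription factor that represses inflammatory genes, fell by 1.12 ± 0.065 without TCM (adjusted p = 1.23e-64, and -1.05 without SJ8), by 0.19 ± 0.064 in NB9464 TCM (adjusted p = 0.0195, edgeR adjusted p = 0.0694) and by 0.25 ± 0.064 in NBT3L TCM (adjusted p = 0.00117). Zfp36, which encodes tristetraprolin, a protein that destabilizes inflammatory mRNAs, fell by 0.90 ± 0.084 without TCM (adjusted p = 1.18e-24, and -0.86 without SJ8) and by 0.23 ± 0.084 in NB9464 TCM (adjusted p = 0.031, edgeR adjusted p = 0.0697), and differed by -0.21 ± 0.084 in NBT3L TCM (adjusted p = 0.0629).

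Osm had 344 and 157 normalized counts with R788 alone, against 321 and 479 in NS, and these pairs overlapped. With NB9464 TCM it had 255 and 331 with R788 against 734 and 627 without, and with NBT3L TCM 391 and 371 against 528 and 582. It was lower with R788 in every library of both media. Osm fell by 1.22 ± 0.30 on the log2 scale in NB9464 TCM (adjusted p = 0.000748). It differed by -0.54 ± 0.30 in NBT3L TCM (adjusted p = 0.25, and 0.0327 in a fit of the libraries compared alone) and by -0.68 ± 0.30 without TCM (adjusted p = 0.0789). The value without TCM depended on the R788 library kept, with -0.22 (adjusted p = 0.622) without SJ8 and -1.35 (adjusted p = 3.8e-05) without SJ7, and it was called without SJ1 (-0.94, adjusted p = 0.0376). Without SJ8, the effect in NB9464 TCM differed from that without TCM by -0.997 (adjusted p = 0.0386), against -0.54 (adjusted p = 0.459) with all libraries. The effects of R788 in the 2 media were not shown to differ (-0.67, 95% interval -1.51 to 0.17, adjusted p = 0.805).

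Socs3 had 352 and 224 normalized counts with R788 alone, against 487 and 491 in NS. With NB9464 TCM it had 13563 and 12967 with R788 against 18569 and 18442 without. With NBT3L TCM it had 13043 and 12876 against 21084 and 20567. All libraries with R788 lay below their controls. Socs3 fell by 0.77 ± 0.19 on the log2 scale without TCM (adjusted p = 0.00036), by 0.48 ± 0.18 in NB9464 TCM (adjusted p = 0.0376, edgeR adjusted p = 0.00573) and by 0.68 ± 0.18 in NBT3L TCM (adjusted p = 0.0014). Without SJ8 the value without TCM was -0.48 (adjusted p = 2.5e-05), and without SJ7 it was -1.13 (adjusted p = 2.24e-22). The rise over NS was still 27.1-fold with NB9464 TCM and R788 and 26.5-fold with NBT3L TCM and R788. The call in NB9464 TCM was lost on leaving out any single library other than SJ7 or SJ8 (adjusted p up to 0.238), with log2 values from -0.51 to -0.45. The effects in NB9464 TCM and NBT3L TCM differed from that without TCM by 0.29 (adjusted p = 0.524) and 0.086 (adjusted p = 0.895). These differences were called without SJ7 (0.65 and 0.44, adjusted p = 1.9e-06 and 0.00277) and were -0.0030 and -0.21 without SJ8.

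Stat3 had 6172 and 7002 normalized counts with R788 alone, on either side of the NS libraries at 6453 and 6428. With NB9464 TCM it had 8443 and 7974 with R788 against 9193 and 9431 without, and with NBT3L TCM 8524 and 8599 against 10290 and 10416. It was lower with R788 in all libraries of both media. The log2 difference was 0.033 (95% interval -0.10 to 0.17, adjusted p = 0.79) without TCM, and -0.063 (adjusted p = 0.525) without SJ8. Stat3 fell by 0.18 ± 0.068 in NB9464 TCM (adjusted p = 0.0419, edgeR adjusted p = 0.0857) and by 0.27 ± 0.068 in NBT3L TCM (adjusted p = 0.000794). The call in NB9464 TCM was lost on leaving out any single library other than SJ7 or SJ8 (adjusted p up to 0.345). The effect in NBT3L TCM differed from that without TCM by -0.31 ± 0.096 (adjusted p = 0.0154, edgeR adjusted p = 0.0695), and that in NB9464 TCM by -0.21 ± 0.096 (adjusted p = 0.118, or 0.00219 without SJ7). The first of these was lost without any 1 of SJ1, SJ2, SJ5, SJ6, SJ8, SJ11 and SJ12 (adjusted p up to 0.0959).

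The receptor chains were higher with R788. Il10ra had 6017 and 6471 normalized counts with R788 alone, against 4216 and 4087 in NS. With NB9464 TCM it had 5528 and 5894 with R788 against 4415 and 4377 without, and with NBT3L TCM 5803 and 5323 against 4211 and 3847. No library with R788 overlapped one without. Il10ra rose by 0.59 ± 0.078 without TCM (adjusted p = 1.14e-12), by 0.38 ± 0.078 in NB9464 TCM (adjusted p = 2.88e-05) and by 0.47 ± 0.079 in NBT3L TCM (adjusted p = 1.16e-07), and these calls held in every alternative run. Without SJ8 the value without TCM was 0.53 (adjusted p = 1.64e-08).

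Il6ra had 5779 and 5136 normalized counts with R788 alone, against 4840 and 4632 in NS. With NB9464 TCM it had 3918 and 4140 with R788 against 3335 and 3053 without, and with NBT3L TCM 3237 and 3063 against 2379 and 2464. Libraries with R788 lay above those without in each medium. Il6ra rose by 0.34 ± 0.086 in NB9464 TCM (adjusted p = 0.0012) and by 0.38 ± 0.088 in NBT3L TCM (adjusted p = 0.000266). Without TCM the difference was 0.20 ± 0.085 (adjusted p = 0.0545), or 0.29 (adjusted p = 0.00828) without SJ8. The call in NB9464 TCM was lost without SJ4 (adjusted p = 0.0666) or SJ10 (adjusted p = 0.0634). The partner chains Il6st and Il10rb were not called with R788 in any medium, with log2 differences from -0.21 to 0.12.

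**Figure D5:**
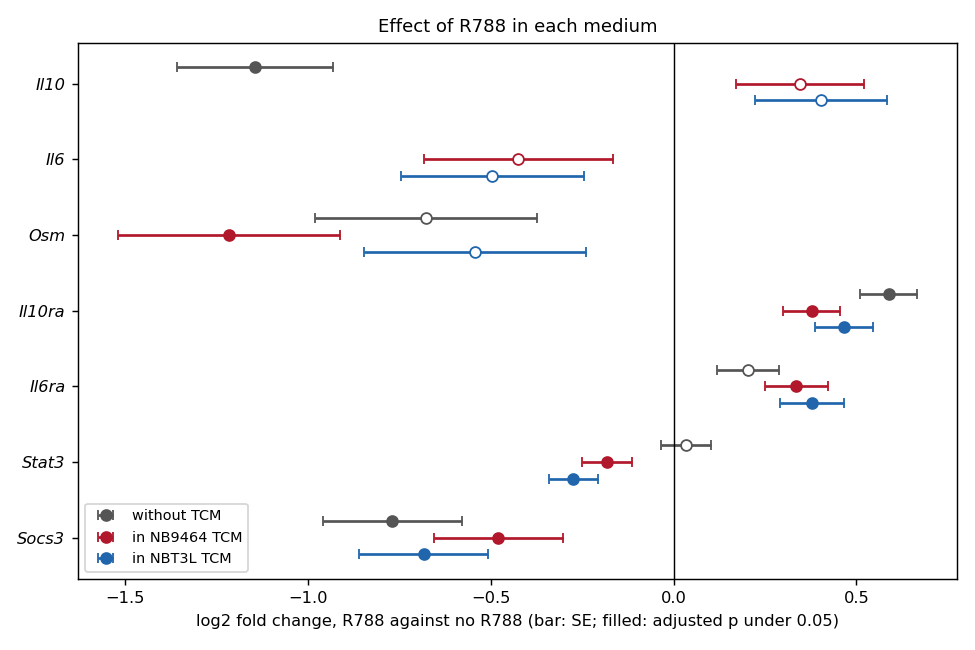
Log2 fold change with R788 against no R788 without TCM (gray), in NB9464 TCM (red) and in NBT3L TCM (blue), with bars of 1 SE and filled points for an adjusted p under 0.05. Il6 without TCM is left out because it had no counts with R788. Il10 lies at -1.14 without TCM and right of 0 in both media, and the 2 receptor chains lie right of 0 throughout.

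None of the 7 members was called for a difference between the effects of R788 in the 2 media by DESeq2 or edgeR, and none had an unadjusted p under 0.05 by DESeq2 (0.706% of all genes were called). The intervals were wide for Osm, given above, and for Il6 (0.071, 95% interval -0.63 to 0.78). In a fit of the libraries compared alone, Socs3 was called (0.21, adjusted p = 0.0249). Among the 60 other genes of the axis, Il1rn was called (0.66, adjusted p = 0.00997, edgeR adjusted p = 0.209), and leaving out single libraries gave between 0 and 3 called genes: 0 without SJ3, SJ5, SJ6, SJ10 or SJ11, and 3 without SJ7 or SJ8.

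Marker levels moved alongside the effects of R788. The neutrophil markers, with 7 of 7 detected, summed to between 516 and 546 TPM in NS, 694 and 743 in NB9464 TCM and 771 and 787 in NBT3L TCM. With R788 they summed to between 399.8 and 527 without TCM, 579 and 615 in NB9464 TCM and 589 and 604 in NBT3L TCM. This sum was higher with TCM and lower with R788 in both media, as were Socs3 and Stat3. Most of it came from S100a8 and S100a9, with 77.9% and 79.8% in NS and 94.2% and 93.8% in NB9464 TCM. Their share was 91.3% and 92.1% in NB9464 TCM + R788. The summed level of the other neutrophil markers went the other way, lower with TCM and higher with R788 in both media. Ly6g was near 0 throughout. The 4 fibroblast markers, all detected, summed to between 8.13 and 10.2 TPM in NS and 18.3 and 22.7 with R788, 7.66 and 8.59 in NB9464 TCM and 9.19 and 12.2 with R788, and 8.59 and 10.1 in NBT3L TCM and 16.0 and 16.8 with R788, and so moved in the direction of Il10ra and Il6ra. The macrophage markers, with 8 of 8 detected, moved that way too in their sum, most of which came from Lyz2. They summed to between 77235 and 84112 TPM with R788 alone against 72383 and 72621 in NS, to between 85083 and 85156 with R788 in NB9464 TCM against 74364 and 75772, and to between 84876 and 86874 with R788 in NBT3L TCM against 72570 and 77974, without overlap in any medium. The part of these marker levels in the results was not tested. Directions of single macrophage markers are not given here.

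Further genes of the axis moved with R788. Jak2 rose in NB9464 TCM (0.46 ± 0.097, adjusted p = 3.73e-05), and Tyk2 rose by 0.28 ± 0.076 without TCM, 0.25 ± 0.076 with NB9464 TCM and 0.24 ± 0.077 with NBT3L TCM (adjusted p = 0.00128, 0.00802 and 0.0164), the first being 0.27 without SJ8. Ptpn6, the phosphatase SHP-1, rose by 0.29 ± 0.051 and 0.28 ± 0.051 in the 2 media (adjusted p = 2.81e-07 and 1.48e-06), and Socs1 fell by 0.77 ± 0.18 without TCM (adjusted p = 0.000227, and -1.05 without SJ8). Ebi3 rose by 0.36 ± 0.097 in NB9464 TCM (adjusted p = 0.00265) and by 0.27 ± 0.097 in NBT3L TCM (adjusted p = 0.0383, edgeR adjusted p = 0.0805). In all, 12 of the 60 genes were higher and 14 lower without TCM. In NB9464 TCM 10 were higher and 11 lower, and in NBT3L TCM 7 were higher and 10 lower. Across all genes, 11.6% were called higher and 15.0% lower without TCM. The shares were 5.79% and 8.70% in NB9464 TCM, and 5.33% and 7.24% in NBT3L TCM. Of the 26 called without TCM, 21 were also called without SJ8, while Jak1, Jak3, Timp1, Bhlhe40 and Adam17, named here for that loss, were not. The 26 were 17 in a fit of the libraries compared alone, and the 17 in NBT3L TCM were 8 without SJ5.

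STAT3 targets did not fall together with Socs3. Of the 14, 4 were higher and 7 lower without TCM, 3 higher and 5 lower in NB9464 TCM, and 2 higher and 6 lower in NBT3L TCM. Over all genes, the shares called higher and lower were 11.6% and 15.0%, 5.79% and 8.70%, and 5.33% and 7.24%. Median log2 differences of the targets were -0.15, -0.14 and -0.13, against medians over all genes between -0.0031 and 0.0033. Il1rn had means of 2044 normalized counts in NS and 359 with R788, of 4116 and 1162 in NB9464 TCM, and of 16531 and 2947 in NBT3L TCM. It fell by 2.51 ± 0.12 without TCM (adjusted p = 1.26e-90, and -2.25 without SJ8), by 1.83 ± 0.12 in NB9464 TCM (adjusted p = 5.07e-54) and by 2.49 ± 0.11 in NBT3L TCM (adjusted p = 2.16e-106). Myc, a transcription factor of cell growth, fell by 1.12 ± 0.10 without TCM (adjusted p = 8.09e-26, and -1.11 without SJ8), by 0.54 ± 0.10 in NB9464 TCM (adjusted p = 1.73e-06) and by 0.67 ± 0.10 in NBT3L TCM (adjusted p = 2.05e-09). Cebpd went the other way and rose by 1.22 ± 0.068 without TCM (adjusted p = 1.21e-68, and 1.25 without SJ8), by 0.30 ± 0.066 in NB9464 TCM (adjusted p = 7.6e-05) and by 0.24 ± 0.066 in NBT3L TCM (adjusted p = 0.00279).

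The profiles of the members over the 12 libraries were set beside those of 10704 genes, as a description, since all values come from the same libraries and the step between cells with and without TCM dominates them. By Pearson correlation of log2(normalized count + 1), Socs3 was most like Wfdc17 (r = 0.997), Tnf (0.996) and Slco3a1 (0.996), and Il6 was most like U90926 (0.998), Mrpl52 (0.993) and Nomo1 (0.991). Il10 was most like Bcl2a1d (0.993), Rasgrf1 (0.987) and Slc25a12 (0.987). Il10ra was most like Nacc2 (0.963), Dcaf8 (0.96) and Klc4 (0.957), Il6ra like Abcc3 (0.976), H1f0 (0.974) and Laptm5 (0.973), Stat3 like Alas1 (0.975), Glis3 (0.972) and Riok3 (0.972), and Osm like Parp3 (0.962), Nob1 (0.948) and Snhg17 (0.925). Among the members, Il6 and Socs3 ran closest together (0.984), Il6ra and Stat3 ran most opposite (-0.952), and Il10 and Il10ra showed little relation (-0.176).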

How the data were processed

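RNA of BMDMs was sequenced after poly(A) selection, as paired reads of 150 bases on a NovaSeq per the labels, whereas the methods of the study state single reads on a HiSeq2000 in triplicate. The authors deposited whole-number read counts per Ensembl gene with a gene length, made with STAR and Salmon on mm10 by their methods. Their processing notes list STAR 2.6.1d, Salmon 1.4.0, SAMtools 1.9, Picard 2.26 and MultiQC 1.11. The strand setting, the treatment of reads with several positions and the step that gave whole numbers were not given in the sources used here. Between 65.2% and 67.9% of counts from 1 to 40 were even, and a rerun on halved counts was an alternative.

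Symbols and positions came from GENCODE M21 on GRCm38, for 54079 of 54232 identifiers. The test covered genes reaching 10 counts in 2 or more libraries and used DESeq2 1.42.0 (R 4.3.3), the tool of the study, in 1 fit of 6 group means over 12 libraries with 6 residual degrees of freedom. Wald tests were two-sided on unshrunken log2 fold changes, and a gene was called at an adjusted p under 0.05. The Benjamini-Hochberg adjustment left out some low-count genes, and which ones depended on the comparison. Il11 and Ctf1 were left out for both media against NS, and Il19 for R788 against NS. Genes left out could not pass the threshold but stay among the 16281 tested and in the shares of all genes. No batch was given. An exact permutation test of 2 against 2 libraries cannot go below p = 0.333. TPM were computed from counts and the deposited lengths. The quasi-likelihood test of edgeR 4.0.16 was an alternative. Scripts were tested on simulated data. Promoter sequences were found in RefSeq for 4 of the 7 members (Il6, Il6ra, Stat3 and Socs3).

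The members and lists were chosen with earlier results of these data known. Named beside the members were Il10rb, Il6st, Osmr, Jak1, Jak2 and Tyk2, up to 2 called genes of each list and comparison with the largest change (mean normalized count 100 or more), and the 3 genes most correlated with each member. Every sample column was used. The result of 1 listed gene is not reported here.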

Additional observations from a re-analysis of the deposited data

Results flagged for a closer look

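The effect of R788 on Il10 differed between media by the interaction contrasts of DESeq2. It was 1.49 higher on the log2 scale in NB9464 TCM than without TCM, and 1.55 higher in NBT3L TCM than without TCM. The libraries with R788 lay below NS in 2 of 2 libraries without TCM and above their controls in 2 of 2 libraries of each medium. Over the alternatives run, the first value ranged from 1.38 to 1.61 (adjusted p up to 0.000546) and the second from 1.45 to 1.66 (adjusted p up to 0.000451).

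The effect of R788 on Stat3 in NBT3L TCM differed from that without TCM by -0.31. Over the alternatives it ranged from -0.40 to -0.21, with adjusted p from 2.67e-05 to 0.0959. It was not called by edgeR (adjusted p = 0.0695) and lost its call without any 1 of SJ1, SJ2, SJ5, SJ6, SJ8, SJ11 and SJ12 (without SJ8: -0.21, adjusted p = 0.071).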

How the results depend on the processing

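No paired analysis was possible because no 2 groups share a replicate number in the labels. The alternatives were edgeR with TMM scaling, DESeq2 with TMM factors, no count filter, halved counts, a fit of the libraries compared alone, leaving out each library in turn, and, chosen after seeing the data, total-count scaling. A lone library of a group was assumed to vary like the other groups. Of the values of single members, 347 kept direction and call under the alternatives with all libraries, 8 gained and 4 lost a call, and 1 reversed (Il10ra in NB9464 TCM against NS, -0.046 with total-count scaling). With 1 library left out, 663 kept direction and call, 11 gained, 34 lost and 12 reversed. None of the reversed values had been called. The causes were not tested.

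Counts of called members moved as follows. For the effect of R788 in NBT3L TCM minus that without TCM, 2 became 1 with edgeR, for that in NB9464 TCM 1 became 2 with total-count scaling, and for the difference between the media 0 became 1 in the fit of the libraries compared alone. Of the 60 other genes, 20 called between the media became 13 with edgeR. The 26 called for R788 without TCM became 17 in the fit of the libraries compared alone. The 1 called for the difference between the effects of R788 in the media became 0 with edgeR and 3 in that fit.

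With 1 library left out, called members numbered 3 to 5 for R788 without TCM, 2 to 5 for R788 in NB9464 TCM, 2 to 5 between the media, and 1 to 3 for each medium's effect of R788 minus that without TCM. Other genes called numbered 8 to 21 for R788 in NBT3L TCM, 10 to 23 between the media, 8 to 17 for the effect in NBT3L TCM minus that without TCM, and 0 to 3 for the difference between the effects in the media. Values that reversed ranged from -0.11 to 0.019 for Il10ra in NBT3L TCM against NS and from -0.063 to 0.12 for Stat3 with R788 without TCM. For the effect of R788 in NB9464 TCM minus that without TCM, Osm ranged from -0.997 to 0.13 and Socs3 from -0.0030 to 0.65, and in NBT3L TCM Osm ranged from -0.33 to 0.80 and Socs3 from -0.21 to 0.44. For the difference between the effects in the media, Il10 ranged from -0.17 to 0.060, Il6 from -0.086 to 0.25 and Il6ra from -0.11 to 0.021.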
